A study of Drosophila melanogaster with 3 samples.

Results

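Pdp1 summits at divergent promoters are the peaks that lie where 2 protein-coding genes start back to back. A line of the optimal peak list was taken when its summit lay within 1 kb of a transcription start site (TSS) of a minus-strand gene and within 1 kb of a TSS of a plus-strand gene, with the minus-strand TSS at the lower coordinate and the 2 TSSs at most 1 kb apart. The rule took 2004 of 13583 optimal peaks on the dm6 assembly (14.8%). They were 2004 of the 6919 optimal peaks within 1 kb of any protein-coding TSS (29.0%, 95% Wilson interval 27.9 to 30.04), and the other 4915 are called non-divergent promoter peaks below. The rule used positions alone and no signal value. The 2004 summits lay in 1869 intervals, and 275 of them shared an interval with another optimal summit, so they are not all independent.

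The peaks came from ChIP-seq on Drosophila melanogaster, with whole embryos of mixed sex aged 0 to 24 h as the material. The flies were a transgenic line that stably expressed Pdp1 with eGFP, a green fluorescent protein, at its C-terminus, and the antibody was against GFP. There was 1 group of 3 biological replicates from this line, with no untreated, mutant or other second group. Whether the line's own Pdp1 gene is intact is not stated in its labels, and the antibody sees tagged Pdp1 alone. The 3 replicates share 1 line, so their spread may be partly technical. A whole embryo mixes all its tissues, so a summit cannot be placed in a cell type. The lists give a signal per peak and no read counts, so depth is unknown; signal is the authors' own value and ranks peaks within a list only.

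Pdp1 is a basic leucine zipper transcription factor of the PAR group, named for a stretch rich in proline and acidic residues beside the zipper, and it is known in the fly for its part in the circadian clock and in muscle. Factors of this group bind as dimers to short words, the palindrome TTACGTAA and the near-palindrome TTATGTAA being the usual ones (the PAR site). In the compact fly genome many housekeeping genes stand head to head, sharing a short stretch between their TSSs from which both are transcribed outward. Such promoters often carry short elements of their own, among them the DRE, TATCGATA, which is bound by Dref. Words were looked for on either strand in the window 50 bp to each side of a summit. The wider PAR family is the set of 8-base words that begin TT, end AA and alternate A or G with C or T between. It holds the PAR site itself and words such as TTATGCAA. This pattern was chosen in an earlier analysis of these data, so its frequency at the summits is a description and not independent support.

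The sequences of the named peaks with a PAR-family word show the kinds of site seen at divergent promoters. They are printed from the Release 6 genome, plus strand, 5′ to 3′, each with its dm6 position, and the capitals mark PAR-family words. The first 3 are the 51 bases around the summit and the rest are a word within 50 bp of the summit with 10 bases on each side. TTATGTAA or its reverse TTACATAA stands at ND-23/spn-E, CG15027/Dbct and HLH4C/mRpL30.
ND-23/spn-E, chr3R:15836889-15836939: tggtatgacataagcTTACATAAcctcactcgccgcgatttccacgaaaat
CG15027/Dbct, chrX:15086332-15086382: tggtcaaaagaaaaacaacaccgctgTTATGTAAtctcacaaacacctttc
MED19/CG7430, chr3L:17847249-17847299: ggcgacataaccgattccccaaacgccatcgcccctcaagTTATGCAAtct
msl-1/CG10336, chr2L:18689677-18689704: cccctgtgacTTATGCAAgcgtcgcctg
Atg4b/Hibch, chr3R:15357238-15357265: taaaattctaTTGCGCAAcgctgaattt
CG1677/CG2059, chrX:7286742-7286769: ttaacaataaTTACGCAActttagcaaa
Mic26-27/CG5916, chr3R:16146680-16146707: ttgttagacaTTGCGTAAtttgtcacag
PolrMT/CG14339, chr2L:1108278-1108305: acagcatttgTTGCATAAttacacaccg
COX8/VhaM9.7-b, chr3L:21539211-21539238: cacatcctggTTATGCAAcaagctcaaa
HLH4C/mRpL30, chrX:4647813-4647840: taacattggtTTACATAAcggcagtatc
slmb/CG5793, chr3R:21127815-21127842: ttaataaataTTGCGCAAgtaagtgccg

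The next set holds TATCGATA, again in capitals, and is shown because this word was more frequent at divergent than at non-divergent promoter summits. For Arpc1/Orc5 the whole stretch between the 2 TSSs is given, for cdi/ATPsynD the 51 bases around the summit, and for the other pairs the word with 10 bases on each side. The cdi/ATPsynD summit also had the PAR-family word TTATATAA within 50 bp, so it is 1 of the 12 summits with both words. The 51 bases shown cut that word short.
Arpc1/Orc5, chr2L:13829742-13829836: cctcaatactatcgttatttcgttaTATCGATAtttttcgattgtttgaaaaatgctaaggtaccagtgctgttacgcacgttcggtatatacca
cdi/ATPsynD, chr3R:19094341-19094391: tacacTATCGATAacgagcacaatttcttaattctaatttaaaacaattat
Tudor-SN/mRpL17, chr3L:264765-264792: agagtatcgcTATCGATAaatggtcgcc
DIP2/wac, chr3L:258171-258198: ctgtagagacTATCGATAtctgcaccta

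The last set is from strong peaks, and from the peak of the histone variant gene His2Av, with no word of either kind in the stretch shown. These stand for the commonest class, since 1495 of the 2004 summits (74.6%) had neither word within 50 bp. The CG17660/mRpL48 peak does hold GTGTGACC, the reverse of the Motif 1 core GGTCACAC described below. That word was at 4.19% of divergent promoter summits. For Art3/mRpS10, Chro/Ssl1 and CG17660/mRpL48 the stretch between the 2 TSSs is given whole, and for the others the 51 bases around the summit. The summits of Chro/Ssl1 and CG17660/mRpL48 lay 82 bp inside Chro and 12 bp inside mRpL48. Both are thus outside the stretch shown.
Ugalt/eIF2Bbeta, chrX:2703862-2703912: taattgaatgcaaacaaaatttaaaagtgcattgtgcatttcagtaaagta
Art3/mRpS10, chr3R:15229409-15229664: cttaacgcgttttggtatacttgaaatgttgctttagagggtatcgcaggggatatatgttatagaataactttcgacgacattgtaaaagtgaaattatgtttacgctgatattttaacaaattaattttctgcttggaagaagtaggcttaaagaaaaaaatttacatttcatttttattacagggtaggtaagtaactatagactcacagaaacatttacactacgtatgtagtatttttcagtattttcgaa
RpL32/CG7943, chr3R:30046294-30046344: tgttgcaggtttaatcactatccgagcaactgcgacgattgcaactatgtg
Chro/Ssl1, chr3L:22878985-22879088: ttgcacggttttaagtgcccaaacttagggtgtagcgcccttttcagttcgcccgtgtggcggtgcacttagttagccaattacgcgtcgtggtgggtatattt
CG17660/mRpL48, chr2L:1710422-1710461: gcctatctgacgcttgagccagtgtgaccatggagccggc
ball/His2Av, chr3R:26866675-26866725: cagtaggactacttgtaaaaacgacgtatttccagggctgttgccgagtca

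The strongest divergent promoter peak lay at msl-1/CG10336. msl-1 encodes a scaffold of the dosage compensation complex. The signals here in replicates 1, 2 and 3 were 3576, 1843 and 941, which were the 7th, 8th and 11th strongest peaks of those lists, and it was rank 8 of the optimal list. The summit lay 6 bp inside CG10336 and 897 bp from the msl-1 TSS, so it sat at 1 end of a pair spaced 891 bp apart. The next, at Ugalt/eIF2Bbeta, was less even, with rank 40 in replicate 1, 3 in replicate 2 and 13 in replicate 3 and signals of 2418, 2421 and 925. Ugalt carries UDP-galactose across the Golgi membrane and eIF2Bbeta belongs to the exchange factor of translation initiation factor eIF2; the summit lay between them, 35 bp from the Ugalt TSS.

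The next of the 12 strongest pairs had the following ranks in the replicates. At Atg4b/Hibch, an autophagy protease beside an enzyme of valine breakdown, the ranks were 11, 20 and 35 in replicates 1, 2 and 3, and the summit lay 42 bp inside Hibch. At Art3/mRpS10, an arginine methyltransferase beside a protein of the mitochondrial small ribosomal subunit, the ranks were 44, 5 and 21, and the summit lay between the TSSs, 115 bp from that of mRpS10. At Mic26-27/CG5916 the ranks were 20, 26 and 34; Mic26-27 belongs to the complex that shapes the inner mitochondrial membrane, and the summit lay 29 bp inside it. PNPase, an RNA-degrading enzyme of mitochondria, is paired with the kinase gene Gprk2, and the ranks there were 61, 17 and 29. PolrMT, the mitochondrial RNA polymerase, is paired with CG14339, and the ranks were 28, 62 and 41. The summit lay 85 bp inside PNPase in the first of these pairs and 93 bp inside PolrMT in the second. At CG17660/mRpL48 the ranks were 49, 41 and 46 and the summit lay 12 bp inside mRpL48.

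The other peaks of the 12 stood at genes of varied function. Chro encodes a chromodomain protein and Ssl1 a subunit of the general factor TFIIH; at this pair the ranks were 88, 16 and 48 and the summit lay 82 bp inside Chro. AQP encodes an aquaporin, and AQP/CG4627 had ranks of 22, 44 and 23 with TATCGATA at the summit. CG1677/CG2059 had ranks of 21, 14 and 43, and Fbw5/CG9147 had ranks of 37, 19 and 15. All 12 were among the 100 strongest lines of every replicate. Ugalt/eIF2Bbeta, Art3/mRpS10, PNPase/Gprk2 and Chro/Ssl1 each stood higher in replicate 2 than in replicates 1 and 3, by 10 or more places.

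**Figure D1:**
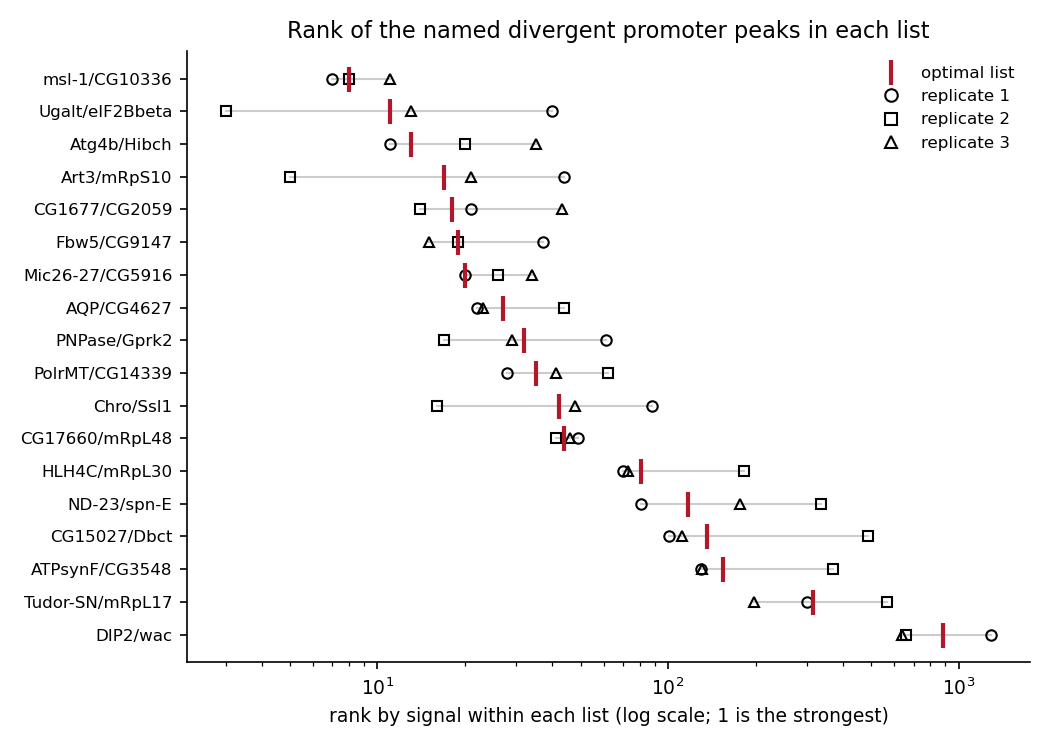
Rank by signal (horizontal, log scale, 1 is the strongest) of 18 named divergent promoter peaks in the optimal list (red bar) and in each replicate (open symbols), 1 pair a line. The 4 pairs HLH4C/mRpL30, ND-23/spn-E, CG15027/Dbct and ATPsynF/CG3548, chosen for a PAR site, ranked from 182 to 488 in replicate 2 and from 70 to 130 in replicate 1.

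The 4 pairs named for a PAR site were each lower in replicate 2 than in the other replicates. At HLH4C/mRpL30, a basic helix-loop-helix factor gene beside a mitochondrial ribosomal gene, the ranks in replicates 1, 2 and 3 were 70, 182 and 73. At ND-23/spn-E, a subunit of respiratory complex I beside a helicase of the germ-line piRNA pathway, they were 81, 335 and 177. The ranks were 101, 488 and 112 at CG15027/Dbct and 130, 370 and 131 at ATPsynF/CG3548, ATPsynF being a subunit of ATP synthase. The same replicate difference is given below for all summits with and without these words.

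Most annotated divergent pairs carried a Pdp1 summit. The gene models held 2667 divergent pairs, and 1639 of them (61.5%) had a summit that fits the rule. In the replicate lists, taken at their 13583 strongest lines, the share for replicates 1, 2 and 3 came to 56.3%, 68.6% and 70.1% (65.0 ± 7.57%, SD, n = 3). Of genes in a divergent pair, 3268 of 5052 (64.7%) had an optimal-list summit no farther than 1 kb from a TSS, against 2880 of 8893 genes in no such pair (32.4%) and 6148 of all 13945 protein-coding genes (44.1%). The stretch searched was a median of 2001 bp per gene in both groups and 1701 bp per pair. A gene in a pair also collects the summits of its partner's promoter. Among genes with a single annotated TSS and in no divergent pair, 1687 of 6791 (24.8%) had a summit.

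Most bound pairs had 1 summit. There were 1140 pairs with 1 summit, 450 with 2, 46 with 3 and 3 with 4, and 1028 had none. Edem1/Rbcn-3B, spaced 93 bp apart on X and 1 of the 3 pairs with 4 summits, pairs a factor of endoplasmic reticulum protein breakdown with a regulator of the vacuolar proton pump. At the other end, 148 summits fitted more than 1 gene pair, and a single summit on 3R, of rank 1399, fitted 21. These belong to mod(mdg4), an insulator gene whose messages are joined in trans from separately annotated pieces on both strands; 37 annotated pairs contain such a piece and 21 of them were bound, all counted in the totals above. The share of pairs bound by arm was 57.0% on 2L, 59.7% on 2R, 62.9% on 3L, 63.3% on 3R and 64.8% on X, and 6 of 11 pairs on chromosome 4 were bound.

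Pair spacing made only a moderate difference to how often a pair was bound. A summit had to lie within 1 kb of both TSSs, so the stretch searched for a TSS pair shortens as the spacing grows. The shares were not adjusted for this. The share bound was 68.3% at 1 to 100 bp, 53.8% at 101 to 200 bp, 68.5% at 201 to 300 bp, 65.8% at 301 to 500 bp and 51.2% at 501 to 1000 bp. The class of 101 to 200 bp was below both of its neighbours in each replicate, with 49.6%, 57.4% and 64.7% in replicates 1, 2 and 3. These shares include the 42 histone pairs named below, which were not set apart by spacing. Whether those pairs account for the lower class was not tested. Median spacing over the summits was 313 bp, with the middle of the distribution from 207 to 491 bp. At the limits of the rule, 48 summits had a spacing over 900 bp and 93 had the farther TSS over 900 bp away, and 122 non-divergent promoter peaks would have been taken with both limits at 1100 bp. The histone genes stand apart here: all 42 annotated pairs of 2 histone genes had no summit in the list, but these genes are near-identical repeated copies, and how reads that match several copies were treated is not given in the sources used here, so this count is uncertain.

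Summits at divergent promoters were concentrated between the TSSs and close to 1 of them. Of the 2004, 1090 (54.4%, Wilson interval 52.2 to 56.6) lay between the TSSs, 439 on the minus-strand gene's side and 475 on the plus-strand gene's side. The stretch between the TSSs is on average 24.6% of the positions the rule allows. For replicates 1, 2 and 3 the share between came to 48.1%, 65.3% and 54.9% (56.1 ± 8.68%, SD, n = 3), so replicate 2 had most of its summits there and replicate 1 fewest. There was little preference for strand: 971 summits were nearer the minus-strand TSS, 1029 nearer the plus-strand TSS and 4 midway.

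Even at the closest pairs the narrow gap held a larger share of the summits than of the positions allowed. At 1 to 100 bp spacing 27.1% of summits lay between the TSSs, where that stretch was 3.01% of the positions allowed, and at 201 to 300 bp 58.7% lay between, against 14.6% of positions. At 501 to 1000 bp the values were 62.6% and 54.5%. In the widest pairs the summits followed the 2 TSSs rather than filling the space, as the plot of summit position against spacing shows. The median distance to the nearest TSS was 71 bp at divergent and 248 bp at non-divergent promoter summits, and 61.2% and 28.2% lay within 100 bp; having to be near 2 TSSs constrains the divergent class here, so this is a description of the class.

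**Figure D2:**
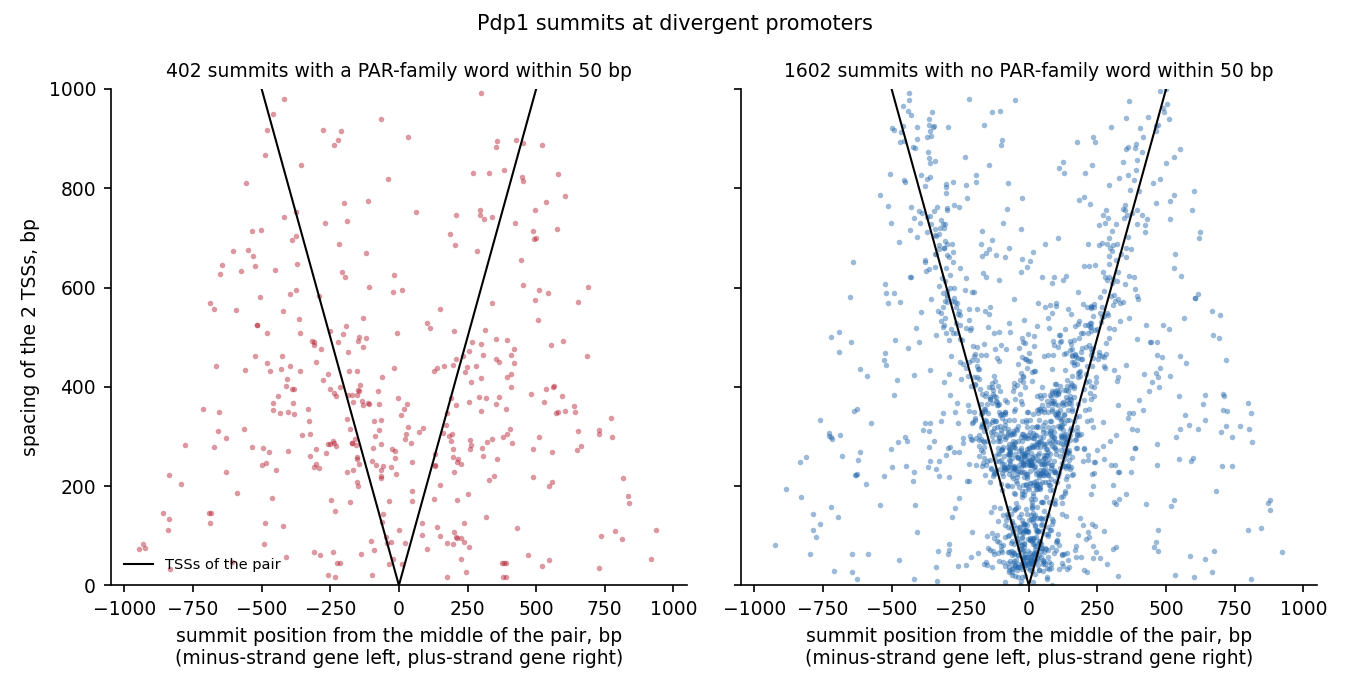
Position of each divergent promoter summit from the middle of its TSS pair (horizontal, bp, minus-strand gene to the left) against the spacing of the pair (vertical, bp), for the 402 summits with a PAR-family word within 50 bp on the left and the 1602 with none on the right; black lines mark the 2 TSSs. Summits with no word gather between and along the lines, 60.7% of them between the TSSs, and summits with a word scatter into the genes on both sides, with 29.4% between the TSSs.

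Summits with a PAR-family word were placed differently from those without. A word stood within 50 bp of 402 divergent promoter summits, and 118 of these (29.4%) lay between the TSSs, against 972 of the 1602 summits with no word (60.7%). The difference was -31.3 percentage points (95% Newcombe interval -36.2 to -26.1, which covers counting of peaks only). It was -26.1, -29.0 and -28.4 points in replicates 1, 2 and 3, a mean of -27.8 ± 1.53 points (SD, n = 3), lower in 3 of 3 replicates; the exact two-sided sign-flip permutation test gave p = 0.25, the smallest that 3 replicates allow, so no difference here or below could reach 0.05 over replicates. The word itself lay between the TSSs at 106 of the 402 summits, with its centre a median of 18.5 bp from the summit.

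Measured from the nearest TSS, summits with a PAR-family word lay inside the gene and summits without lay just upstream. With a word, 275 of 402 (68.4%) were downstream of the nearest TSS at a median of +89.5 bp; without, 607 of 1602 (37.9%) were, at a median of -24 bp. At non-divergent promoters the shares were 54.7% with a word and 36.5% without. In annotation terms, 34.1% of divergent promoter summits with a word were in an intron and 21.1% were intergenic, against 14.2% and 49.8% of those without; 34.8% and 32.5% were in a 5′ UTR. The DRE went the other way: with TATCGATA, 93 of 119 summits (78.2%) lay between the TSSs, against 52.9% of those without, and in the replicates the difference was +27.9, +18.9 and +23.1 points.

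**Figure D3:**
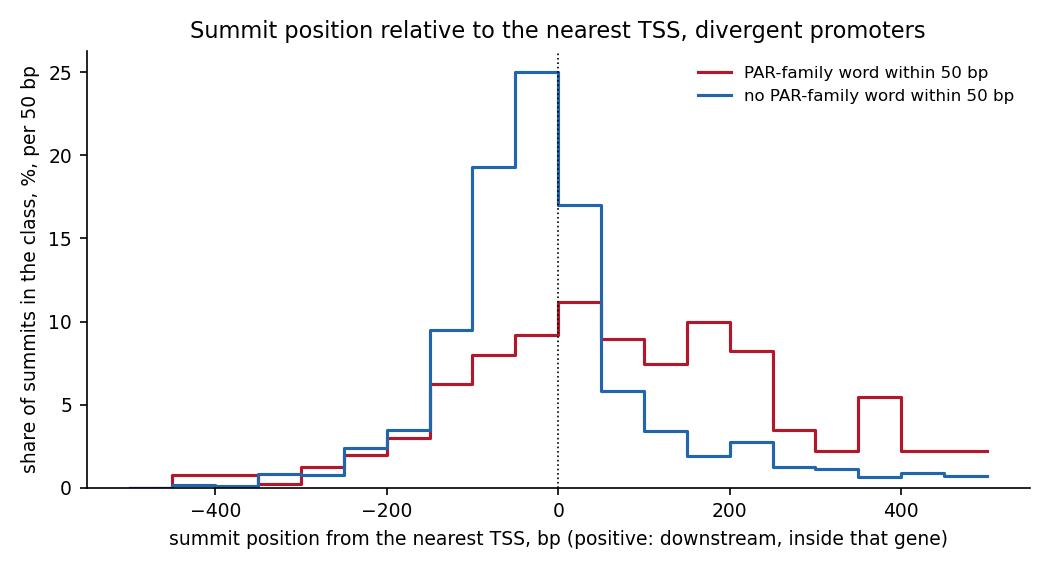
Share of divergent promoter summits (vertical, % of the class per 50 bp) by position from the nearest TSS (horizontal, bp, positive is downstream, inside that gene), for summits with a PAR-family word within 50 bp (red) and with none (blue). The blue line peaks just upstream of the TSS, with a median of -24 bp, and the red line is spread downstream, with a median of +89.5 bp; summits beyond 500 bp are not drawn.

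Sequence words differed between divergent and non-divergent promoter summits, in both directions. A PAR-family word was at 20.1% of divergent summits and 28.5% of non-divergent ones, a difference of -8.49 points (interval -10.6 to -6.29), and it was -9.08, -6.73 and -5.36 points in replicates 1, 2 and 3 (exact sign-flip p = 0.25, lower in 3 of 3). The PAR site itself was at 6.99% and 8.89%, a difference of -1.91 points. When both classes were held to summits within 250 bp of a TSS, the family difference was -2.94 points (interval -5.28 to -0.550) and the PAR site difference was +0.178 points (interval -1.21 to 1.63), so the PAR site difference changed sign at this distance. Keeping only summits found in both other replicates, the family difference was -5.63, -4.94 and -6.11 points without replicates 1, 2 and 3, and the PAR site difference was -0.464, -0.192 and -0.702 points, each with an interval that covers 0. In windows of the same width 300 bp away, 4.19% of divergent and 4.68% of non-divergent peaks had a family word, as did 3.36% of windows on all 19607 annotated TSSs and 5.66% of windows on the middle of all 2667 pairs.

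The DRE, Motif 1 core, E-box and TATAAA words were each more frequent at divergent than at non-divergent promoter summits. TATCGATA was at 5.94% of divergent and 2.56% of non-divergent promoter summits, a difference of 3.37 points (interval 2.31 to 4.57) and of 3.09, 3.57 and 3.14 points in replicates 1, 2 and 3 (exact sign-flip p = 0.25, higher in 3 of 3). Windows 300 bp away had it at 1.60% and 0.590%, windows on all TSSs at 4.47% and windows on the middle of all pairs at 4.87%. The Wilson interval at divergent summits was 4.99 to 7.06%. Held to 250 bp of a TSS, the difference was 1.91 points (interval 0.515 to 3.37), and with words searched to 25 or 100 bp in place of 50 it was 1.86 and 6.78 points. GGTCACAC, the core of the housekeeping element Motif 1, was at 4.19% and 2.28%, and CAGCTG, an E-box, at 201 of 2004 and 321 of 4915 summits, each higher in the divergent class in 3 of 3 replicates. In windows 300 bp away GGTCACAC was at 1.65% of divergent and 0.366% of non-divergent peaks, and CAGCTG at 5.69% and 4.54%. Both were thus also more frequent in the divergent class away from the summit. The ratio of summit to away share was 2.55 in divergent and 6.22 in non-divergent peaks for GGTCACAC. For CAGCTG it was 1.76 and 1.44. The 2 words were not compared within 250 bp of a TSS. On all TSSs these 2 words were at 4.67% and 8.85%. TATAAA was at 277 and 588 summits of these classes, at 11.1% and 13.4% of their windows 300 bp away, and at 15.3% of TSSs.

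**Figure D4:**
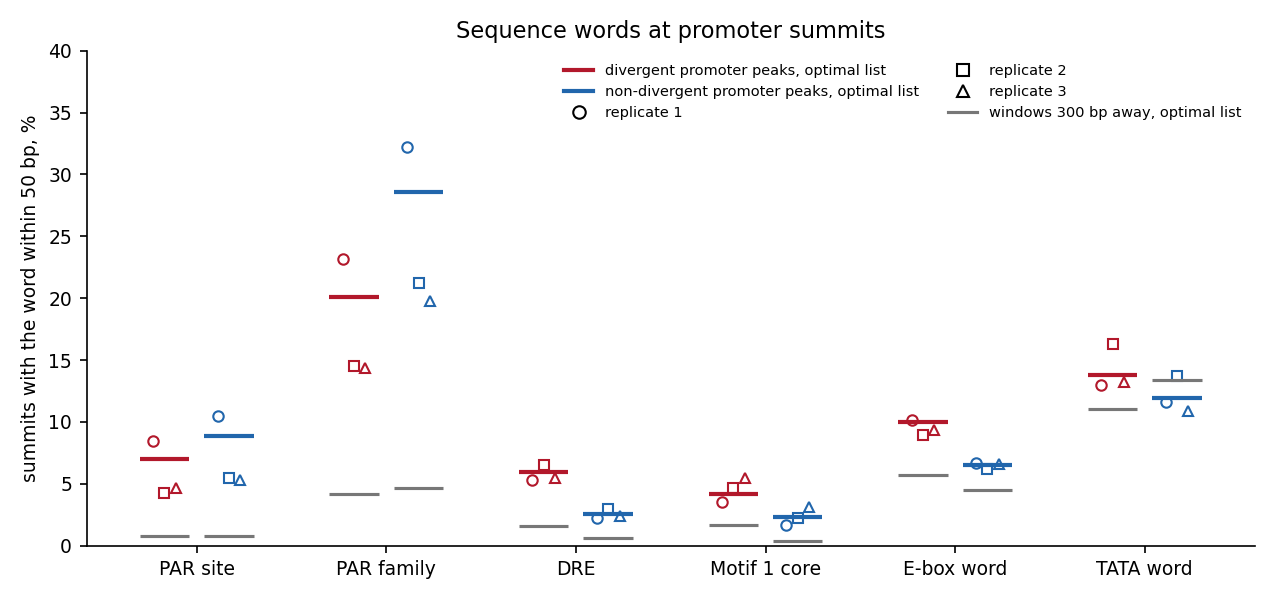
Share of promoter summits with each word within 50 bp (vertical, %), for divergent promoter peaks (red, left of each pair) and non-divergent ones (blue, right); thick bars are the optimal list, open symbols the 3 replicates and grey bars windows 300 bp away in the optimal list. The PAR family is at 20.1% of divergent and 28.5% of non-divergent summits, and the DRE at 5.94% and 2.56%.

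Within the divergent class PAR-family words were most frequent at the strong peaks. The 390 summits with a family word and no DRE had a median rank of 2306.5, and 37.2% were among the 1358 strongest optimal lines. The 107 with a DRE and no family word had a median rank of 6475 and 4.67% among those lines, and the 1495 with neither had 6185 and 12.04%. The 12 summits with both had a median rank of 1280 and were all found in all 3 replicates. By strength, a family word was at 39.9% of the 501 strongest divergent summits and at 8.18% of the 501 weakest. Ranked by replicate 1 instead, over the summits matched there, the corresponding shares were 46.0% and 5.17%. Ranked by replicate 3 they were 34.9% and 14.7%, and by replicate 2 27.4% and 17.8%, the narrowest gap. The common words were TTACATAA (its reverse is TTATGTAA) at 115 summits, TTATATAA at 77 and TTATGCAA at 66, and TTACGTAA was at 25.

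The classes of word also differed between the replicates. A summit counts as found in a replicate when a summit of its 13583 strongest lines lies within 200 bp. Of the 390 summits with a family word and no DRE, 97.7%, 87.2% and 89.7% were found in replicates 1, 2 and 3. Of the 107 with a DRE and no family word, 72.0%, 97.2% and 89.7% were. Of the 201 divergent summits found in replicates 2 and 3 and not in 1, 2.99% had a family word and 10.9% a DRE; of the 43 found in replicate 1 alone, 46.5% had a family word and none a DRE. Replicate 1 thus held more of the family-word summits and fewer of the DRE summits, and its depth and handling were not tested as these are not in the labels.

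Recovery in all 3 replicates was more frequent for divergent than for non-divergent promoter peaks, with 1 replicate against this. The share found in all 3 was 72.8% (1459 of 2004) and 65.9% (3238 of 4915), a difference of 6.92 points (interval 4.54 to 9.25). Replicate by replicate the divergent share was lower in the first, at 86.0% against 89.7%. It was higher in the second, at 89.7% against 80.9%, and in the third, at 91.0% against 84.4% (exact sign-flip p = 0.5, higher in 2 of 3). Without replicate 2 the difference was 3.52 points, and with all lines of each replicate in place of the 13583 strongest it was 0.0854 points (interval -1.50 to 1.58). Divergent summits were also somewhat stronger: the median rank was 5305.5 and 6380, the median signal 402 and 349, and 337 of 2004 and 639 of 4915 were among the 1358 strongest lines, a difference of 3.82 points (interval 1.97 to 5.74) that was 3.68, 6.16 and 3.51 points in the replicates (exact sign-flip p = 0.25, higher in 3 of 3). With 1 TSS kept per gene it was 2.00 points, with an interval of -0.0019 to 4.07 that covers 0.

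Genes for the mitochondrial ribosome and the respiratory chain had a summit at most of their divergent promoters, and the summit mostly lay on their own side. The gene lists were made by symbol, and their shares are set beside the 61.5% of all 5052 genes in divergent pairs with a summit by the rule, as a description with no test. The lists were chosen with earlier results of these data known, so they are not independent support. Of mitochondrial ribosomal protein genes, 58 of 73 were in a divergent pair and 56 of the 58 (96.6%) had a summit, the exceptions being mRpL4 and mRpS18A. The counts in replicates 1, 2 and 3 were 54, 57 and 58. The median rank of the strongest summit per gene was 879, against 4209.5 over all genes with a summit, and 31 of the 56 were among the 1358 strongest lines, which is 55.4% against 21.6% of all such genes.

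The place of these summits within the pair was uneven. At 49 of the 56 mitochondrial ribosomal genes (87.5%) the summit was nearer the gene's own TSS than its partner's, and the share was 90.7%, 86.0% and 87.9% in replicates 1, 2 and 3 (88.2 ± 2.40%, SD, n = 3). Over all genes it was 49.9%, since nearly every summit counts once for each side. The summit lay downstream of the ribosomal gene's own TSS at 37, between the TSSs at 16 and on the partner's side at 3, which are mRpL2, mRpL35 and mRpS28. Proteins of the large subunit had a summit at 36 of 37 paired genes and those of the small subunit at 20 of 21. A PAR-family word was at 22 of the 56 summits (39.3%) and a DRE at 6; over all genes with a summit, 22.8% of the distinct strongest summits had a family word. Strong examples besides mRpS10 and mRpL48 were mRpL1, with ranks 63, 64 and 76 in replicates 1, 2 and 3, and mRpS11, with ranks 78, 63 and 65.

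The respiratory chain genes had the strongest summits of the longer lists. Of 92 genes, 45 were in a divergent pair and 39 of these (86.7%) had a summit, with 40, 42 and 42 in replicates 1, 2 and 3. Median best rank was 496, and 36 of the 39 were among the 1358 strongest lines. A family word was at 29 of the 39 summits (74.4%) and a DRE at 1, that of ATPsynD. The summit was nearer the respiratory gene's own TSS at 35 of 39 genes (89.7%), with 85.0%, 81.0% and 88.1% in the replicates (84.7 ± 3.58%, SD, n = 3). It lay downstream of that TSS at 32, between the TSSs at 5 and on the partner's side at 2, ND-ASHI and ND-49. By complex, a summit was at 21 of 22 paired genes of complex I, 2 of 2 of complex III, 7 of 8 of complex IV and 8 of 10 of ATP synthase, and at 0 of 2 of complex II, SdhC and the SdhB-like gene SdhBL.

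Single respiratory genes show the range. ATPsynbeta, the catalytic subunit of ATP synthase, had ranks of 76, 340 and 138 in replicates 1, 2 and 3, and its summit lay in an intron on its own side of the pair with CG11076. ATPsyngamma, the rotor shaft of the same enzyme, had ranks of 96, 105 and 106. At cdi/ATPsynD the ranks were 75, 279 and 64, and the summit lay between the TSSs, 96 bp from cdi and 634 bp from ATPsynD. The same summit lay downstream of the TSS of mRpL55, also paired with ATPsynD. It and its DRE are thus counted in both the respiratory and the mitochondrial ribosomal list. COX5A, of cytochrome c oxidase, had ranks of 119, 154 and 63, with the summit 35 bp inside it. COX8 had ranks of 112, 278 and 173, with the summit 200 bp inside it and not on the side of its partner VhaM9.7-b, a part of the vacuolar proton pump. Each of these except ATPsyngamma stood lowest in replicate 2. The 3 genes outside the 1358 strongest lines were COX7AL, with rank 2183 and the summit on its own side, ND-B8, with rank 7714, and Cyt-c1, with rank 8743, the last 2 with the summit between the TSSs.

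**Figure D5:**
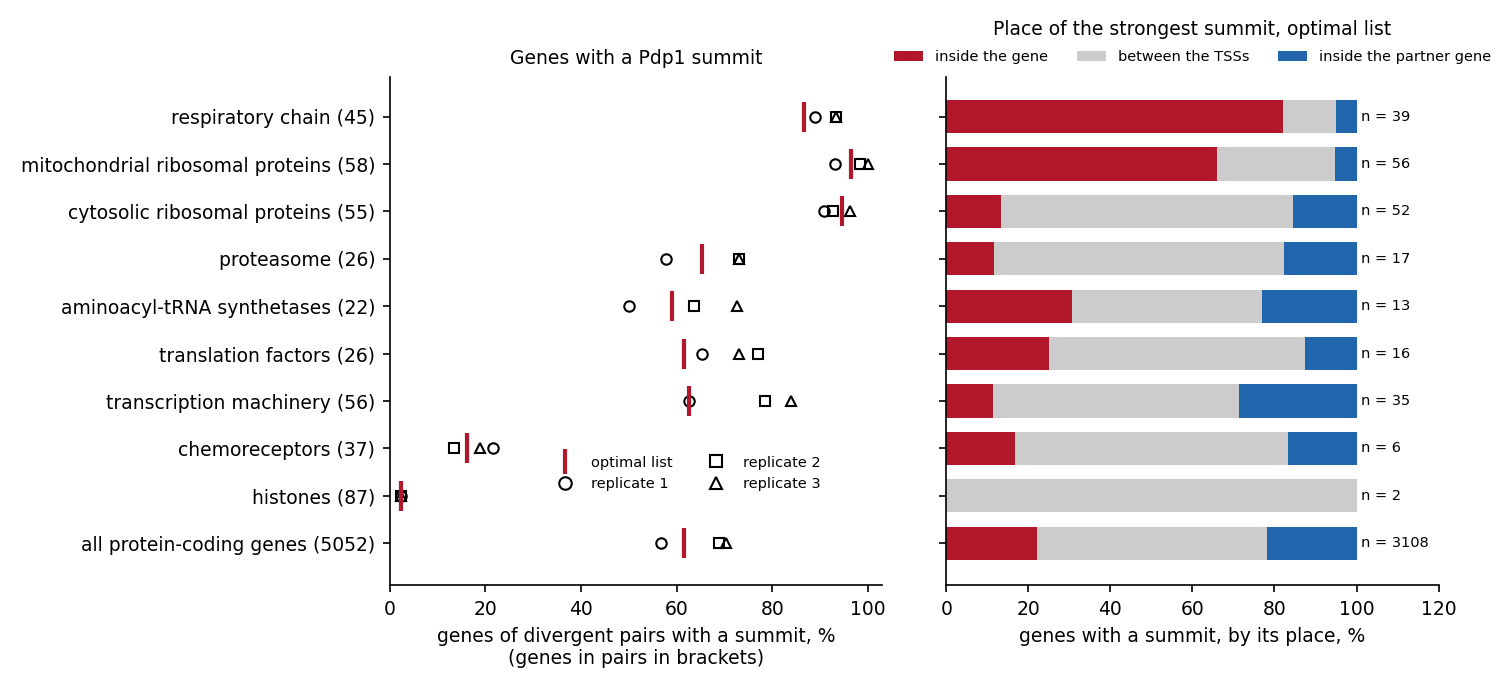
Left, share of the paired genes of each list (number of paired genes in brackets) that had a summit, in the optimal list (red bar) and in each replicate (open symbols); right, the place of the strongest summit in the optimal list as a share of the genes with one: downstream of the gene's own TSS (red), between the TSSs (grey) or on the partner's side (blue). The summit is on the own side at 82.1% of respiratory chain genes and 66.1% of mitochondrial ribosomal genes, against 13.5% of cytosolic ribosomal genes and 22.2% of all genes.

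Cytosolic ribosomal genes had a summit at a similar share, and it lay between the TSSs at most of them, as it did over all genes. Of 55 paired genes 52 (94.5%) had a summit, with 50, 51 and 53 in replicates 1, 2 and 3, and RpL36A, RpL5 and RpS15Ab had none. Median best rank in the optimal list was 3940, close to the 4209.5 of all genes. In replicates 1, 2 and 3 it was 5089, 2646 and 2587, against 4945, 3464 and 4247 for all genes, so it was stronger in replicates 2 and 3. A family word was at 6 of the 52 summits. The summit lay between the TSSs at 37 of the 52 (71.2%, against 55.9% of all genes with a summit) and downstream of the ribosomal gene's own TSS at 7. RpL32, a common reference gene of expression studies, was the strongest, with ranks of 133, 100 and 123 and a summit midway in the 309 bp between it and CG7943, 158 bp from its TSS and 151 bp from its partner's. RpL13 shares its promoter with Dref, the gene of the DRE-binding factor; the ranks there were 190, 175 and 192, and the summit lay 13 bp inside Dref with no DRE within 50 bp.

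Other lists were near the share of all genes or held few pairs. A summit was at 35 of 56 paired genes of the transcription machinery (62.5%), at 17 of 26 of the proteasome, at 13 of 22 tRNA synthetases, at 16 of 26 translation factors and at 9 of 14 vacuolar ATPase genes. Within these, PolrMT and MED19, a Mediator subunit, led the transcription list; MED19/CG7430 had ranks of 89, 225 and 125 with its summit in CG7430, 238 bp inside. Mitochondrial import genes had a summit at 5 of 5, Tom7 and Tim8 being the strongest, with optimal ranks of 370 and 1186. The Tom7 summit lay 226 bp inside its partner CG8229 and 735 bp from the Tom7 TSS, and that of Tim8 lay 2 bp inside Tim8. Mic26-27 and Marf, the fly mitofusin, made up the 2 of 2 genes of mitochondrial shape. In the optimal list 2 of 10 paired replication genes had one, Orc5 and Mcm5, with ranks of 2208 and 6965, and in replicates 1, 2 and 3 the counts were 3, 4 and 6 of 10.

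Chemoreceptor, cuticle and histone genes had few summits at divergent promoters. A summit was at 6 of 37 paired chemoreceptor and odorant-binding genes (16.2%), the strongest being Ir60b, whose partner is Letm1, a mitochondrial ion exchanger, and Obp47b. The Ir60b summit lay between the TSSs, 124 bp from that of Letm1 and 564 bp from that of Ir60b. None of 5 paired cuticle genes had one, and 2 of 87 paired histone genes did, the variant gene His2Av and the replacement gene His4r. Cytochrome P450 genes had one at 5 of 13, with Cyp6a22 and Cyp6a9 strongest. The Cyp6a22 summit lay 64 bp inside its partner Pcf11. That of Cyp6a9 lay 670 bp from its TSS and 76 bp from that of its partner Cyp6a20. Glutathione S-transferases had one at 3 of 7, with GstE14 and GstO1 strongest. These 2 summits lay 193 bp inside the partner CG4679 and 128 bp inside the partner foi, and that of GstS1 lay on its own side. Of 4 paired heat shock genes 3 had one, Hsp83 and, with a single summit shared, Hsp67Bc and Hsp22.

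Clock and muscle genes are the settings Pdp1 is known from. A summit within 1 kb of any TSS was at 12 of 17 clock genes (70.6%) and 20 of 26 muscle genes (76.9%), against 44.1% of all genes. A gene with more TSSs offers a longer stretch, and these shares were not adjusted for this. Over the gene lists the share ran from 2.61% for histones to 98.6% for mitochondrial ribosomal proteins. Of 17 clock genes 3 were in a pair (17.6%, against 36.2% of all genes) and 2 had a summit, slmb and nmo. slmb, the ubiquitin ligase adaptor that removes PER and TIM, had ranks of 153, 285 and 162 in replicates 1, 2 and 3, but the summit lay 69 bp inside its partner CG5793, with TTGCGCAA beside it; at Pop4/nmo the ranks were 9561, 6078 and 13192. Of 26 muscle genes 8 were paired (30.8%, near the share of all genes) and 6 had a summit. The strongest was Tm1, a tropomyosin, paired with the chromodomain gene MRG15, with ranks of 799, 778 and 651 and the summit 415 bp inside Tm1 from the TSS of this pair and 33 bp from another annotated TSS. Next came Msp300, a nuclear envelope spectrin-repeat protein, where the ranks were 1127, 1417 and 925 and the summit lay 212 bp inside its partner ND-13A, a complex I gene. In 3 pairs with a summit both genes were of 1 list: Hsp67Bc/Hsp22, Cyp6a9/Cyp6a20 and Taf10b/Taf10.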

How the data were processed

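The data were peak lists from anti-GFP ChIP-seq in 3 replicates; per the labels, chromatin was sonicated to 200 to 800 bp. Per the deposited file records, the authors made relaxed lists of 30000 lines against a control alignment, for single replicates and for their pool, and took the optimal list from them by IDR, which keeps peaks with a like rank across replicates. For the aligner, the caller and their versions, nothing is given in the sources used here. The authors' signal value per peak has a scale that differs between lists and was used for ranks inside each list. Of the deposited −log10 q-values, 1986 of the 2004 were at the top value of 4.43, so none was tested. The summit offset in each deposited line is other than a measurement of strength and gave the summit. The lists on dm3 were not used here.

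Gene models were Ensembl release 115 (BDGP 6.54) for the Release 6 genome, with 19607 TSSs of 13945 protein-coding genes on 6 arms. Each summit took the TSS pair of smallest summed distance. Replicates were compared over their 13583 strongest lines, and a match was a summit within 200 bp. Ranks given per replicate are of the strongest line within 200 bp in the whole list. Shares have 95% Wilson intervals and differences 95% Newcombe intervals; these cover counting of peaks only. Differences over replicates were tested by an exact two-sided sign-flip permutation test. Background windows were 300 bp from the summit, on alternating sides. The functions were tested on simulated data. Python 3.11.15, numpy 2.4.6, pandas 2.3.3, scipy 1.17.1 and matplotlib 3.10.9 were used.

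Named pairs were the 12 strongest found in all 3 replicates, the 5 strongest with a PAR site, the 3 strongest with a DRE and no family word, the 2 strongest genes of each of the gene lists, and the pair with most summits; 1 pair with a PAR site is not reported here. Other genes, such as those without a summit, those on the partner's side and further ribosomal and respiratory genes, were chosen after their values were seen. The members and lists were chosen with earlier results of these data known, and the PAR-family pattern came from an earlier analysis of these data. The cuticle list took Cpr followed by a number, since Cpr alone is a P450 reductase gene. Alternatives left out each replicate, and changed the TSS window, spacing limit, TSS set, treatment of shared intervals, distance to the TSS, motif window, match distance and number of lines. Those on the place of the summit within the pair were chosen after seeing the data.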

Additional observations from a re-analysis of the deposited data

How the results depend on the processing

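Depth is unknown, all 3 replicates come from 1 line, and intervals cover counting of peaks only. The cause of each shift below was not tested. With the TSS window at 500 bp, divergent peaks made up 24.7% of promoter peaks, 65.7% of them lay between the TSSs, 45.9% of pairs had one, the PAR-family difference from non-divergent peaks was -10.8 points, and the difference in position between summits with and without a family word was -26.1 points. With spacing up to 500 bp, the share of promoter peaks was 23.2%, the difference among the 1358 strongest lines 5.51 points, the DRE difference 3.10 points and the family position difference -35.3 points. With 1 TSS per gene, the share was 32.4%, the difference among the strongest lines 2.00 points (interval -0.0019 to 4.07) and the DRE difference 2.87 points. Within 250 bp of a TSS, the difference in recovery in all 3 replicates was 4.17 points, the PAR site difference turned to +0.178 points, the family difference was -2.94 points, the DRE difference 1.91 points and the family position difference -28.4 points. The recovery difference was 9.43 points with a match within 500 bp and 0.0854 points with all lines of each replicate. With the cut-off for strong lines at 25% of the list the strength difference was 6.78 points. With words searched to 25 bp the DRE difference was 1.86 points, and to 100 bp it was 6.78 points and the family position difference -27.8 points. Each replicate was also left out in turn. For recovery, all promoter peaks were kept and the share found in both others was compared, a difference of 3.52 to 10.3 points. For the other results only summits found in both others were kept. The share of promoter peaks then ranged from 29.9 to 31.8%, summits between the TSSs from 51.8 to 56.6%, and pairs from 50.2 to 55.1%. The difference ranged from 4.02 to 5.15 points for the strongest lines and from 2.76 to 3.30 points for the DRE. It ranged from -0.702 to -0.192 points for the PAR site and from -6.11 to -4.94 points for the family. The family position difference ranged from -32.8 to -29.7 points. The share of genes with the summit nearer their own TSS ran from 87.5 to 88.9% for the mitochondrial ribosome and from 89.7 to 92.1% for the respiratory chain.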
